A study of Mus musculus with 66 samples.

Results

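The genes described here are Tac1 and 9 genes of the hormone-producing cells of the gut: Chga, Chgb, Tph1, Gcg, Pyy, Insl5, Sst, Cck and Nts. They are 10 of the 30452 genes in the deposited table and were chosen by name. Abundance is given in TPM, a relative abundance that is adjusted for transcript length and has the same total in every sample, summed over the transcripts of each gene. Tac1 was added to the hormone genes because its rise at day 3 in rectum and anus had already been seen in these data. Its day 3 values in those sections, and the difference between its day 3 changes in rectum and mid-colon, are therefore given as a description with no test.

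The libraries were 66 bulk RNA samples of dissected gut sections from 19 C57Bl/6 mice, purchased when 6 weeks old. Colitis was induced with 3% DSS (dextran sulfate sodium, which damages the lining of the colon), given over 6 days from experimental day 0, and mice were killed at day 3, 6, 9, 14 or 20 (3 mice per day), so that the mice of day 3 had not completed it. The 4 mice of day 0 were uninjured controls. Mid-colon, rectum and anus were taken from every mouse (19 samples each), a squamous neo-epithelium from all 9 mice killed on days 9, 14 or 20, and the muscle layer was discarded from all sections. The days are thus different animals and the sections of a mouse share the animal. Since the table holds no read counts, the depth of each library is unknown and no counting interval is given. The summed level of 9 squamous markers such as Krt5, Krt14 and Trp63 was 10458 to 27636 TPM in anus and 15062 to 33729 TPM in neo-epithelium, against 3.9 to 23.9 TPM in mid-colon, while rectum spanned 6.86 to 1009 TPM. Skeletal muscle markers summed to 1788 to 18871 TPM in anus, although the muscle layer had been removed.

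Enteroendocrine cells are scattered single cells of the intestinal epithelium that sense luminal nutrients, microbial products and irritants and release peptides or serotonin from dense-core granules. In the colon the main kinds are enterochromaffin cells, which make serotonin through the enzyme Tph1 and can also make the tachykinin peptides of Tac1, and L cells, which make Gcg, Pyy and Insl5. Somatostatin (Sst) marks a further kind, the D cell, whereas Cck and Nts are better known from the small intestine. Tac1 is also made by enteric and sensory neurons, so a bulk sample does not tell which cell its transcripts came from.

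Tac1 (ENSMUSG00000061762, chr6:7555061-7562978 on mm10, plus strand) encodes a precursor whose peptides depend on splicing, and the exons that differ between its transcripts are shown here because the table resolves them. The coordinates and sequences of the exons are those of the GENCODE annotation of GRCm38, the assembly of mm10. Gene coordinates, here and below, are those of RefSeq. Exon 3 lies in 4 of the 5 annotated transcripts and, as background, codes for substance P. Exon 4 and exon 6 are coding exons that are skipped in some transcripts, and exon 6 codes for neurokinin A. Each of the latter is printed with the 20 bases of the spliced mRNA on either side, with the skipped exon in capitals and its neighbours in lower case. Exon 3, common to the transcripts compared, is in lower case throughout.
Exon 3, chr6:7556684-7556780, 97 bases: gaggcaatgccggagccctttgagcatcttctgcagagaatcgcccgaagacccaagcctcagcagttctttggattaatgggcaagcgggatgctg
Exon 4, chr6:7557216-7557260, 45 bases: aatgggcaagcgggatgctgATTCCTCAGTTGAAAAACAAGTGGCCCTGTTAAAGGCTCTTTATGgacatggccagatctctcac
Exon 6, chr6:7559099-7559152, 54 bases: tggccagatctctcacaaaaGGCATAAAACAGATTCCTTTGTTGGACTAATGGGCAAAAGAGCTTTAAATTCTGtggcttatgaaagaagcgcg

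Each day was compared with day 0 of the same section by limma on log2(TPM + 1), and a gene was called when its Benjamini-Hochberg adjusted p over all genes tested was under 0.05. A log2 change is on that scale and understates the change of genes of low abundance. In rectum, 8 of the 10 genes were at 1 TPM or more in both groups compared, and all 8 rose at days 6 and 9. Nts stayed below the filter of 1 TPM. Cck was under 1 TPM in all 4 controls and passed the filter only through its later values, so it had to differ, and it is left out of these counts. Genes called higher made up 11.5% of all genes tested at day 6 and 33.5% at day 9. The median log2 change of the 8 members was 1.97 at day 6 and 2.07 at day 9, where that of all genes was -0.27 and 0.13. Fewer rose on the other days: leaving out Tac1, 5 of 7 at day 3 (background 1.5%), 5 of 8 at day 14 without Cck (background 6.31%) and 3 of 8 at day 20 (background 2.79%). All calls of the 8 members at days 6 and 9 held under each alternative run and without any 1 mouse, at a highest adjusted p of 0.0356. No member was called lower in rectum on any day against day 0. Markers of other cells moved on the same days. The summed level of 11 neutrophil and macrophage markers was 786 to 980 TPM in rectum at day 0, 2929 to 7789 TPM at day 6 and 13277 to 15088 TPM at day 9, with 10 and then all 11 called higher, 2 of them only through these days. Proliferation genes summed to 211 to 255 TPM at day 0 and 102 to 218 TPM at day 6. At day 6, 8 of 10 were called lower, where 37.2% of all genes were. At day 9 the proliferation sum was 891 to 1016 TPM, and all 10 were called higher. Tuft cell markers summed to 8.58 to 14.0 TPM, 24.4 to 76.4 TPM and 175 to 197 TPM, with 1 and 3 of 4 tested called higher. The part of these cells in the members' changes was not tested.

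In mid-colon fewer of the 10 genes were called higher than in rectum on each of these days. Of 8 members tested on each day there, 1 rose on day 3 (background of genes called higher 0.0666%), 5 on day 6 (4.93%), 7 on day 9 (26.5%), 4 on day 14 (2.55%) and 1 on day 20 (0.677%). None was called lower. These counts come from separate fits and do not test the sections against each other. That test is given below for days 3, 6 and 9. The neutrophil and macrophage sum in mid-colon was 646 to 1123 TPM at day 0, 1733 to 3129 TPM at day 6 and 1686 to 3393 TPM at day 9, and the proliferation sum 131 to 212, 97.5 to 157 and 897 to 1465 TPM, and their part was again not tested. Cck and Nts were below the filter in mid-colon on every day. All comparisons of a section with day 0 share the same 4 control mice. In bulk tissue, more cells of a type and more RNA per cell cannot be told apart, and neither can fewer cells and less RNA per cell.

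**Figure D1:**
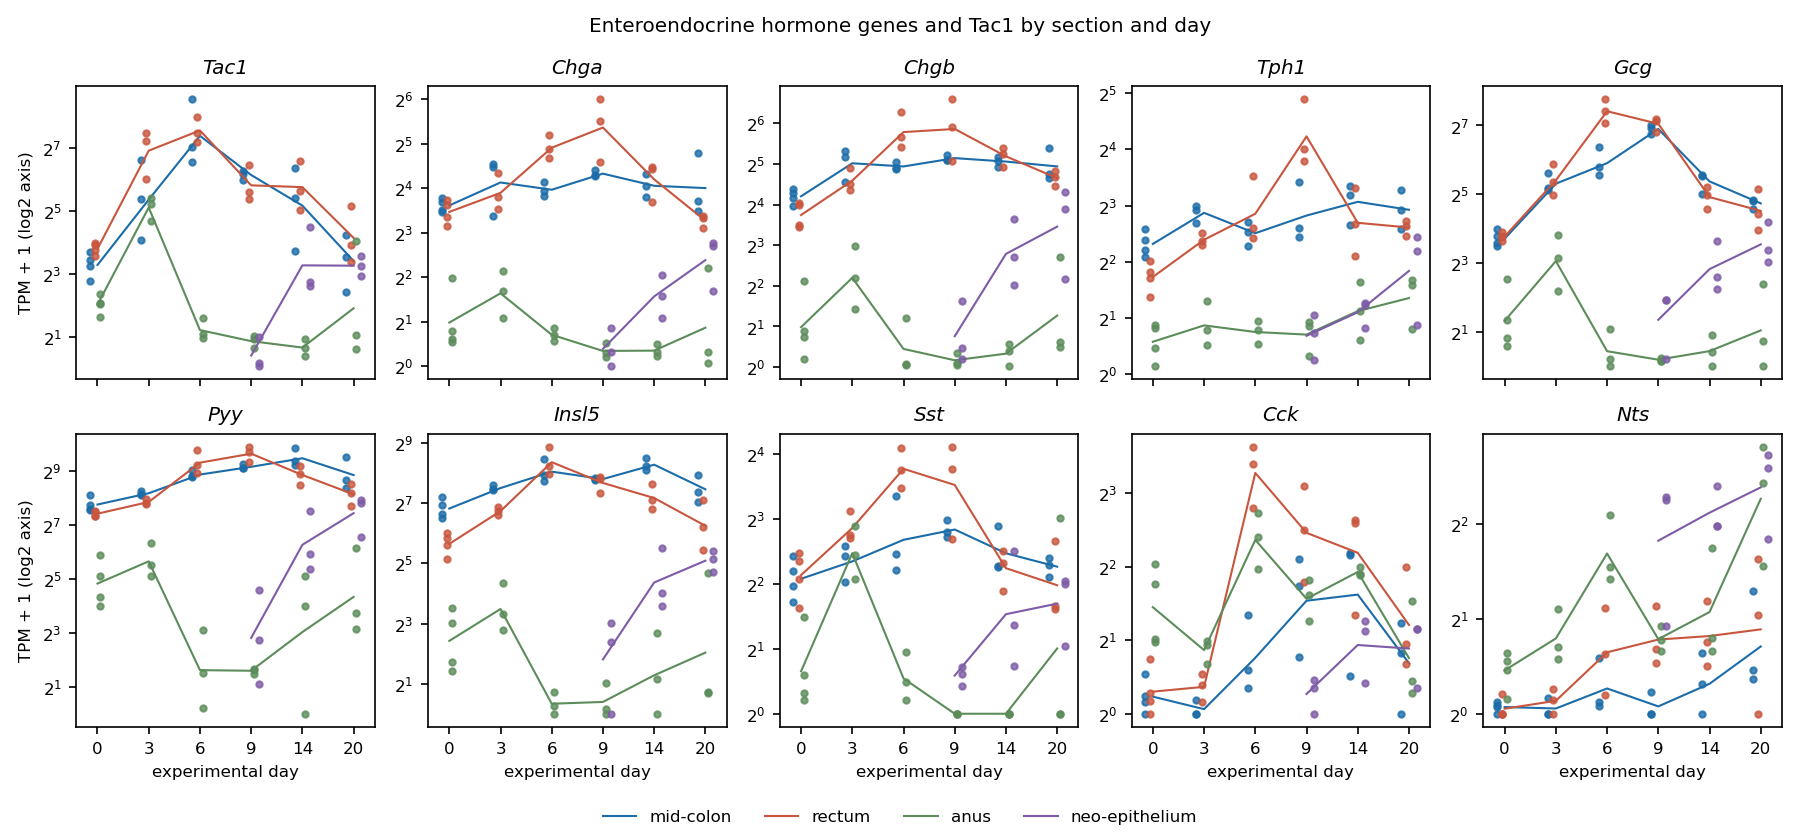
TPM of each of the 10 genes in every sample (points; TPM + 1 on a log2 axis whose range differs between panels) by experimental day, with lines through the mean of log2(TPM + 1) of each section and day (n = 4 at day 0, n = 3 on the other days). In rectum and mid-colon most genes lie highest between day 6 and day 14, and in anus Tac1 lies above its day 0 level at day 3 only, apart from 1 sample of day 20.

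**Figure D2:**
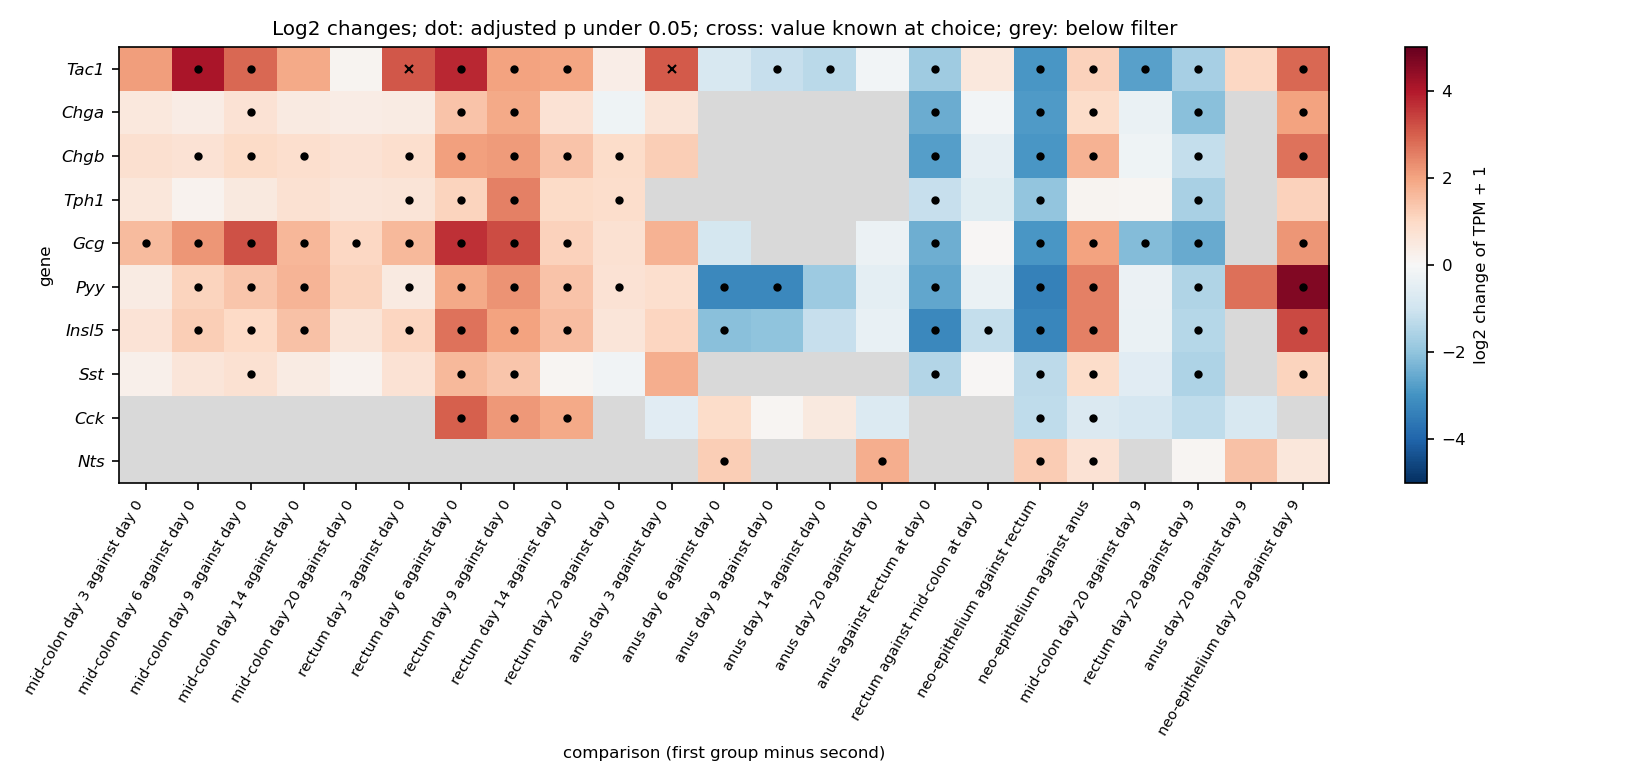
Log2 change of TPM + 1 of each gene (rows) in each comparison (columns, first group minus second, colour scale centred on 0), with a dot where the adjusted p of limma was under 0.05. Crosses mark the Tac1 values known when the gene was chosen and grey cells are genes below the filter of 1 TPM. The rectum columns of day 6 and day 9 have a dot in every row but Nts, and Cck passed the filter there only through those days.

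Tac1 was low in the uninjured gut and high during DSS in mid-colon, rectum and, at day 3, anus. In rectum it was at 10.8, 14.8, 12.5 and 14 TPM in the 4 mice of day 0, and at 179, 149 and 64.1 TPM in the 3 mice of day 3, the values for which it was chosen (log2 change 3.11 ± 0.30, SE). At day 6 the rectum held 255, 176 and 147 TPM, 14.8 times the day 0 mean, with a log2 change of 3.76 ± 0.19 (SE, adjusted p = 1.45e-05). Every rectal sample of days 3, 6, 9 and 14 lay above all 4 samples of day 0. At day 9 it had come down to 40.5, 87.1 and 47.9 TPM (log2 change 2.01 ± 0.25, SE, adjusted p = 1.97e-04), and at day 14 it was at 31.9, 95.3 and 49.1 TPM (log2 change 1.96 ± 0.32, SE, adjusted p = 0.0132). At day 20 the samples, at 14, 34.5 and 9.4 TPM, overlapped those of day 0 and the change did not pass the test (adjusted p = 0.569).

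In mid-colon Tac1 was at 8.5, 9.84, 5.9 and 11.9 TPM at day 0 and at 97.3, 40.5 and 16.1 TPM at day 3, above every control but so spread that the change of 2.07 ± 0.49 (SE) did not pass the test (adjusted p = 0.137). Without mouse 7, the lowest of day 3, its adjusted p was 0.0427. At day 6 it reached 131, 93.7 and 373 TPM, with mouse 10 at the highest Tac1 level of all 66 samples, and the log2 change was 4.10 ± 0.41 (SE, adjusted p = 6.09e-04). The samples of day 9 lay close together at 61.7, 76.5 and 71.8 TPM (log2 change 2.85 ± 0.22, SE, adjusted p = 1.68e-05). At day 14 the level differed widely between mice, at 12.4, 81.1 and 41.6 TPM, and the change did not pass the test (adjusted p = 0.0803, or 0.0479 with TMM factors). By day 20 it was at 10.8, 18 and 4.41 TPM, overlapping day 0. The mice of a day kept their order from rectum to mid-colon for Tac1 on 4 of the 5 days after day 0, and for the other 9 members on 0 to 2 of the 5 days. This is a description over 3 mice a day.

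The anus differed in time course. Tac1 was at 3.15, 3.23, 2.09 and 4.16 TPM at day 0 and at 42, 24.5 and 36.7 TPM at day 3, again the values for which it was chosen (log2 change 3.08 ± 0.25, SE). From day 6 to day 14 no anal sample was above 2.03 TPM, below the lowest control, and the fall was called at day 9 (log2 change -1.16 ± 0.24, SE, adjusted p = 0.0274) but not at day 6 (adjusted p = 0.0672). At day 14, when every sample was under 1 TPM, the gene passed the filter only through the controls, and its log2 change of -1.36 ± 0.25 (SE) is a description. The Tac1 call at day 9 was lost without any 1 of mice 2, 11, 12 and 13 (adjusted p up to 0.13), without the filter of low genes (adjusted p = 0.064) and with all 19 samples of the section in the fit (adjusted p = 0.199). At day 20 mouse 17 was at 15.5 TPM and the other 2 mice were near 1 TPM or below.

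Tac1-205 and Tac1-203 together made up most of the Tac1 TPM in rectum and mid-colon. Tac1-205, the form of 7 exons that holds exons 3, 4 and 6, made up a median of 64.8% of the gene's TPM over the 38 samples of mid-colon and rectum (range 40.6% to 78.6%). Tac1-203, which lacks exon 4, made up 29.6% (20.5% to 44.8%), and the short Tac1-204 a median of 3.8%. Tac1-201, the form without exon 6, had a median of 0% and at most 2.1%. The reference model of Tac1-205 is 1230 bases long with 390 coding bases. In rectum, Tac1-205 took 66.4% ± 6.1 (SD, n = 4) of the gene at day 0 and 65.8% ± 2.08 (SD, n = 3) at day 6, a difference smaller than the SD of the day 0 samples. In mid-colon the corresponding shares were 57.2% ± 18 and 64.5% ± 5.28. The share of Tac1-205 in rectum was 63.5% to 67.7% at day 6 and 71.2% to 75.8% at day 9, with no overlap between these days, while day 0 spanned 60.6% to 75.0%. In mid-colon Tac1-203 took 20.5% to 32.8% at day 0 and 38.2% to 44.8% at day 20, again with no overlap. These pairs of days were picked from all pairs of days in the 2 sections, and no test was run on the shares. The gene as a whole was only at 4.41 to 18.0 TPM in mid-colon at day 20. The split between transcripts is the authors' estimate from single-end reads of 75 bases.

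**Figure D3:**
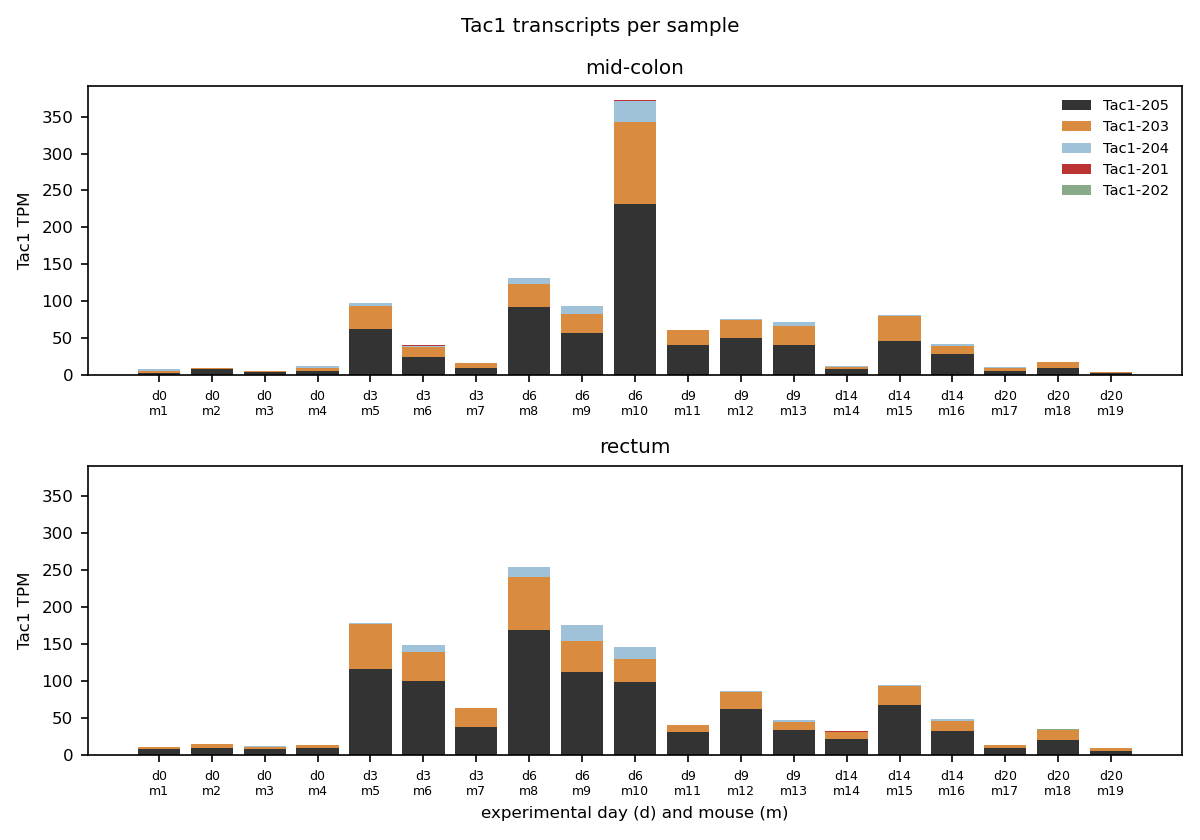
Tac1 TPM in each sample of mid-colon (top) and rectum (bottom), stacked by annotated transcript, with samples ordered by experimental day and mouse. Tac1-205 and Tac1-203 make up most of every bar, and the bar of mouse 10 in mid-colon at day 6 is the highest.

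Of the 11037 genes tested in all 15 comparisons with day 0, the one whose log2 changes were nearest to those of Tac1 was Tnip3, with a root mean square difference of 1.14 over the 15 section and day values. Adgrf1 (1.17) and another member, Insl5 (1.32), came next. The 15 values include the day 3 changes in rectum and anus for which Tac1 was chosen, so this order is a description. The distances nearest to Chga were smaller, 0.407 for Rspo3, 0.414 for Fhl2 and 0.427 for Hlx, and Chga itself changed less. Chga was below the filter in 4 of the 15 comparisons, all of them in anus, and its values there entered unfiltered.

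Chromogranin A (Chga, ENSMUSG00000021194, chr12:102554941-102565027) and chromogranin B (Chgb, ENSMUSG00000027350, chr2:132781642-132795079) are proteins of the dense-core granule found across enteroendocrine cells. Both rose in rectum, most at days 6 and 9. Chga was at 12.4, 7.89, 9.18 and 11.3 TPM in rectum at day 0, at 35.5, 28.2 and 24.5 TPM at day 6 and at 62.9, 23.1 and 44.4 TPM at day 9. The log2 change was 1.44 ± 0.18 (SE, adjusted p = 7.15e-04) at day 6 and 1.90 ± 0.31 (SE, adjusted p = 9.15e-04) at day 9, with no overlap with day 0 on either day. Its values at days 3, 14 and 20 in rectum overlapped day 0 and did not pass the test. In mid-colon Chga passed only at day 9, at 20.2, 18.8 and 18.3 TPM against 11.8, 10.4, 12.8 and 10.1 TPM at day 0 (log2 change 0.71 ± 0.17, SE, adjusted p = 0.0059). The Chga call in mid-colon was lost with all 19 samples of the section in the fit (adjusted p = 0.0522).

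Chgb went from 14.9, 9.84, 10.3 and 15.5 TPM in rectum at day 0 to 76.6, 49.9 and 41.6 TPM at day 6 and 95.5, 32.9 and 59.2 TPM at day 9, and it stayed above all controls on every later day. It was called higher in rectum on all 5 days, with log2 changes, from day 3 to day 20, of 0.85 ± 0.19, 2.04 ± 0.23, 2.12 ± 0.33, 1.44 ± 0.20 and 0.91 ± 0.19 (SE, adjusted p of 5.11e-04 at day 6 and 0.0345 at day 20). Within each of days 6 and 9 the 3 rectal samples were spread, and mouse 11 of day 9 was the highest for Chga, Chgb and Tph1 alike. In mid-colon Chgb went from 14.6 to 20.0 TPM at day 0 to 28.3 to 32.1 TPM at day 6, 33.3 to 36.4 TPM at day 9 and 29.5 to 35.3 TPM at day 14 (log2 change at day 9 0.94 ± 0.17, SE, adjusted p = 0.00131). The difference in the response of Chgb between the sections was not called at day 3, 6 or 9 (adjusted p of 0.973, 0.178 and 0.0893). The Chgb call at day 3 in rectum was lost without any 1 of mice 2, 3, 5, 6 and 7 (adjusted p up to 0.0921), without the filter of low genes (adjusted p = 0.0963) and with all 19 samples of the section in the fit (adjusted p = 0.218). The Chgb call at day 20 in rectum was lost without any 1 of mice 1, 2, 3, 4, 17 and 18 (adjusted p up to 0.097), without the filter of low genes (adjusted p = 0.0704) and with all 19 samples of the section in the fit (adjusted p = 0.0624). The Chgb call at day 6 in mid-colon was lost without mouse 10 (adjusted p = 0.0675). The Chgb call at day 14 in mid-colon was lost without any 1 of mice 1, 2, 3, 15 and 16 (adjusted p up to 0.096).

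Tph1 (ENSMUSG00000040046, chr7:46644641-46672537), the rate-limiting enzyme of serotonin synthesis outside the brain and the marker of enterochromaffin cells, peaked later than Tac1 in rectum. It was at 2.51, 1.6, 2.29 and 3.02 TPM at day 0, at 10.5, 4.39 and 5.08 TPM at day 6 and at 28.7, 15 and 12.9 TPM at day 9, 8.01 times the day 0 mean. The log2 change was 1.12 ± 0.27 (SE, adjusted p = 0.0101) at day 6 and 2.50 ± 0.27 (SE, adjusted p = 9.97e-05) at day 9. All rectal samples of days 3 to 20 lay above the 4 controls, and day 14 did not pass the test (adjusted p = 0.0582). In mid-colon Tph1 was at 4.24, 3.63, 4.98 and 3.26 TPM at day 0 and at 9.76, 4.45 and 5.03 TPM at day 9, and it was not called on any day (lowest adjusted p 0.0968, at day 14). The Tph1 call at day 3 in rectum was lost without any 1 of mice 1, 2, 3, 5, 6 and 7 (adjusted p up to 0.157), with a pseudocount of 0.1 (adjusted p = 0.0548), without the filter of low genes (adjusted p = 0.113) and with all 19 samples of the section in the fit (adjusted p = 0.503). The Tph1 call at day 20 in rectum was lost without any 1 of mice 1, 2, 3, 4, 17 and 18 (adjusted p up to 0.0997), without the filter of low genes (adjusted p = 0.0741) and with all 19 samples of the section in the fit (adjusted p = 0.0845).

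Gcg (ENSMUSG00000000394, chr2:62474530-62483653), the gene of proglucagon, from which L cells cut the glucagon-like peptides, was called on all 5 days in mid-colon and on 4 in rectum. In rectum it went from 12.7, 13.9, 11.4 and 12.5 TPM at day 0 to 40.2, 30.4 and 57.7 TPM at day 3, 169.5, 133 and 216 TPM at day 6 and 146, 111 and 139 TPM at day 9. The controls lay within 11.4 to 13.9 TPM and the lowest sample of day 6 at 133 TPM. The log2 change was 1.64 ± 0.19 (SE, adjusted p = 0.00147) at day 3, 3.65 ± 0.16 (SE, adjusted p = 7.64e-06) at day 6 and 3.28 ± 0.13 (SE, adjusted p = 6.67e-07) at day 9. By day 14 it was at 30.4, 35.7 and 22.9 TPM (log2 change 1.15 ± 0.16, SE, adjusted p = 0.00809) and by day 20 at 14.6, 34.3 and 20.7 TPM, which did not pass the test (adjusted p = 0.0954).

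The mid-colon followed with a later peak, from 11, 14.9, 12.7 and 10.2 TPM at day 0 over 35.6, 33.7 and 47.8 TPM at day 3 and 46.3, 54 and 81.5 TPM at day 6 to 106, 128 and 122 TPM at day 9. Gcg was the only member called at day 3 in mid-colon (log2 change 1.60 ± 0.19, SE, adjusted p = 0.011) and the only one called at day 20 there (1.03 ± 0.20, SE, adjusted p = 0.0362), and between them it was called at day 6 (2.20 ± 0.21, SE, adjusted p = 5.54e-04), day 9 (3.19 ± 0.17, SE, adjusted p = 4.03e-06) and day 14 (1.67 ± 0.20, SE, adjusted p = 0.00635). No sample of days 3 to 20 in mid-colon fell within the range of day 0. The Gcg call at day 3 was lost without mouse 1 or mouse 6 (adjusted p up to 0.0503) and without the filter of low genes (adjusted p = 0.0854). The Gcg call at day 20 was lost without any 1 of mice 1, 2, 3, 17 and 18 (adjusted p up to 0.123) and without the filter of low genes (adjusted p = 0.0934).

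Pyy (ENSMUSG00000017311, chr11:102106676-102107832), the gene of peptide YY, which L cells release together with the glucagon-like peptides, was the most abundant of the 10 genes by mean TPM in rectum and mid-colon on every day. In rectum it was at 163, 161, 181 and 183 TPM at day 0, 248, 229 and 221 TPM at day 3, 879.6, 491 and 610.1 TPM at day 6 and 835, 658 and 959 TPM at day 9. The step at day 3 was small against the tight controls (log2 change 0.43 ± 0.08, SE, adjusted p = 0.0151), and the changes of days 6 and 9 were 1.90 ± 0.18 (SE, adjusted p = 2.33e-04) and 2.23 ± 0.14 (SE, adjusted p = 5.64e-06). It was still higher at day 14 (1.44 ± 0.16, SE, adjusted p = 0.00451) and day 20 (0.72 ± 0.18, SE, adjusted p = 0.0481). In mid-colon Pyy rose at day 6 (1.11 ± 0.16, SE, adjusted p = 0.00283), day 9 (1.40 ± 0.16, SE, adjusted p = 1.03e-04) and day 14, when the 3 mice held 601, 926 and 665 TPM against 281, 217, 187 and 195 TPM at day 0 (1.72 ± 0.20, SE, adjusted p = 0.00524). The Pyy call at day 3 in rectum was lost without any 1 of mice 2, 5 and 6 (adjusted p up to 0.077) and with all 19 samples of the section in the fit (adjusted p = 0.539). The Pyy call at day 20 in rectum was lost without any 1 of mice 1, 2, 3, 4 and 18 (adjusted p up to 0.133), with TMM factors (adjusted p = 0.0977) and without the filter of low genes (adjusted p = 0.0967).

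Insl5 (ENSMUSG00000066090, chr4:103017872-103027271), an insulin-like peptide of colonic L cells, had its highest rectal mean at day 6. In rectum the 4 controls held 56.5, 34.3, 47.5 and 63.6 TPM, the 3 mice of day 6 303, 252 and 467 TPM and those of day 9 161, 235 and 223 TPM. The log2 change was 1.09 ± 0.19 (SE, adjusted p = 0.00971) at day 3, 2.72 ± 0.25 (SE, adjusted p = 2.21e-04) at day 6, 2.03 ± 0.22 (SE, adjusted p = 9.96e-05) at day 9 and 1.52 ± 0.25 (SE, adjusted p = 0.0132) at day 14, and at day 20 the samples overlapped day 0. In mid-colon it was at 122, 91.2, 98.4 and 146 TPM at day 0 and 302, 275 and 361 TPM at day 14, its highest day there, and was called at day 6 (1.23 ± 0.21, SE, adjusted p = 0.00736), day 9 (0.98 ± 0.18, SE, adjusted p = 0.00141) and day 14 (1.46 ± 0.19, SE, adjusted p = 0.00734). The Insl5 call at day 3 in rectum was lost with all 19 samples of the section in the fit (adjusted p = 0.127).

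Sst (ENSMUSG00000004366, chr16:23889573-23891342), the gene of somatostatin, an inhibitor of other endocrine cells, rose from 4.57, 4.11, 3.23 and 2.11 TPM in rectum at day 0 to 12.4, 10.2 and 16 TPM at day 6 and 12.7, 5.46 and 16.3 TPM at day 9. The log2 change was 1.64 ± 0.23 (SE, adjusted p = 0.00116) and 1.39 ± 0.34 (SE, adjusted p = 0.00831), and by day 14 the values were back within the range of day 0 apart from 1 sample slightly above it. In mid-colon it passed at day 9 only, at 6.93, 5.62 and 5.96 TPM against 4.41, 2.3, 3.59 and 2.89 TPM (log2 change 0.76 ± 0.21, SE, adjusted p = 0.0151). The Sst call in mid-colon was lost without mouse 2 (adjusted p = 0.0501) and with TMM factors (adjusted p = 0.05004).

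Cck (ENSMUSG00000032532, chr9:121489824-121495694), the gene of cholecystokinin, was near 0 in the uninjured rectum, at 0.127, 0.213, 0 and 0.682 TPM, and stayed so at day 3. It was at 9.55, 5.92 and 11.3 TPM at day 6, 2.46, 4.62 and 7.52 TPM at day 9 and 1.53, 5.02 and 5.18 TPM at day 14, each above all controls. Since no control reached 1 TPM, the gene passed the filter only through these days. Its log2 changes of 2.97 ± 0.24, 2.16 ± 0.31 and 1.89 ± 0.34 (SE) are therefore a description, and no fold of the TPM means is given because a control sample was listed at 0. In mid-colon the gene was below the filter, at 0 to 0.447 TPM at day 0 and 0.703 to 3.31 TPM at day 9. Nts (ENSMUSG00000019890, chr10:102481756-102490418), the gene of neurotensin, stayed within 0 to 2.09 TPM in rectum and 0 to 1.46 TPM in mid-colon, and was tested in neither section against day 0.

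Sections of the uninjured gut were compared next. Between rectum and mid-colon 1 of the 8 members tested was called, and 5 of 8 had an unadjusted p under 0.05, with a median log2 difference of -0.24 against 0.21 for all genes. The call was Insl5, which was lower in rectum at 56.5, 34.3, 47.5 and 63.6 TPM than in mid-colon at 122, 91.2, 98.4 and 146 TPM (log2 difference -1.17 ± 0.20, SE, adjusted p = 0.0301). Genes called lower in rectum made up 0.274% of all genes tested. The Insl5 call between these sections was lost without any 1 of mice 1, 2 and 3 (adjusted p up to 0.176) and without the filter of low genes (adjusted p = 0.0752). By mean TPM the order in rectum at day 0 was Pyy, Insl5, Tac1, Gcg, Chgb, Chga, Sst, Tph1, Cck and Nts. The ranges of Tac1, Gcg, Chgb and Chga overlapped, as did those of Sst and Tph1 and those of Cck and Nts, while Pyy and Insl5 stood clear of their neighbours. In mid-colon the order was Pyy, Insl5, Chgb, Gcg, Chga, Tac1, Tph1, Sst, Cck and Nts, with overlap between Chgb, Gcg, Chga and Tac1 from one to the next, between Tph1 and Sst and between Cck and Nts.

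In the uninjured anus 7 members were lower than in rectum, where genes called lower made up 34.4% of all genes tested. Pyy was at 14.9, 34, 19.1 and 58.6 TPM in anus (log2 difference -2.60 ± 0.35, SE, adjusted p = 1.63e-04), Insl5 at 1.68, 10.5, 2.32 and 7.1 TPM (-3.23 ± 0.43, SE, adjusted p = 1.65e-04), Chgb at 0.151, 0.841, 0.661 and 3.34 TPM (-2.76 ± 0.36, SE, adjusted p = 1.45e-04) and Tac1 at 3.15, 3.23, 2.09 and 4.16 TPM (-1.77 ± 0.19, SE, adjusted p = 4.06e-05). The other 3, Chga, Gcg and Sst, had log2 differences from -2.49 to -1.48. In anus Chga, Chgb and Sst reached 1 TPM only in their highest sample, at 2.94, 3.34 and 1.81 TPM. These genes thus passed the filter mainly through rectum, where they are higher. Tph1 was under 1 TPM in all 4 anal samples, passed the filter only through rectum, and differed by -1.15 ± 0.21 (SE), which is a description. Markers of colonocytes, the absorptive cells of the colon, moved with these genes: 10 of 10 were lower in anus, at a sum of 1393 to 4015 TPM against 15428 to 18335 TPM in rectum, with none at 0. All 12 markers of simple epithelium, such as Epcam, Krt8 and Cdx1, were also lower, Cdx2 passing the filter only through rectum. Their part in the difference was not tested.

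During and after DSS, calls in anus were few. At day 3 none of the 6 members counted was called (3 had an unadjusted p under 0.05), against 0.044% of all genes in either direction. Sst was at 6.44, 3.22 and 4.45 TPM at day 3 and 0.246, 0.513, 0.154 and 1.81 TPM at day 0, and Gcg at 13.1, 3.56 and 7.91 TPM and 0.75, 1.52, 0.5 and 4.76 TPM, without passing the test. At day 6 Pyy was down to 7.74, 0.173 and 1.83 TPM (log2 change -3.22 ± 0.67, SE, adjusted p = 0.0149) 1 of 4 members counted, with 6.37% of all genes called lower. Insl5, at 0.663, 0.201 and 0 TPM on that day, passed the filter only through the controls, and its log2 change of -2.09 ± 0.50 (SE) is a description. At day 9 Pyy, at 1.8, 2.18 and 2.1 TPM (-3.24 ± 0.41, SE, adjusted p = 0.00281), and Tac1 were lower, 2 of 4 tested (background 3.63%). At day 14 none of the 3 members counted was called (0 with an unadjusted p under 0.05 by limma), where 2.01% of all genes were called lower. The Pyy call at day 6 was lost without mouse 9 or mouse 10 (adjusted p up to 0.0572). Nts was at 0.379, 0.117, 0.473 and 0.564 TPM at day 0, at 3.27, 1.68 and 1.93 TPM at day 6 and at 1.94, 6.02 and 4.39 TPM at day 20. It was under 1 TPM in all 4 controls, passed the filter only through days 6 and 20, and was not tested on the other days. Its log2 changes of 1.23 ± 0.24 and 1.81 ± 0.31 (SE) are a description, where 8.64% of all genes were called higher at day 6 and 1.09% at day 20.

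The epithelial markers of the anal samples moved in the same direction as Pyy and Insl5. Colonocyte markers summed to 1393 to 4015 TPM at day 0 and 2287 to 4923 TPM at day 3. The sum was 61.5 to 121 TPM at day 6 and 29.4 to 73 TPM at day 9. On both of the latter days 9 of 10 were called lower, where 6.37% and 3.63% of all genes were. These include genes that passed the filter only through the controls and so had to differ. They were Aqp8 and Guca2b on both days, and Slc26a3 and Ceacam20 at day 9. Of 11 simple epithelium markers tested, 10 were lower at day 6 and 8 at day 9. Among them Cdx1 passed only through the controls on both days. At day 20 the colonocyte sum spanned 110.0 to 1351 TPM, highest in mouse 17, the mouse that was also highest there for Tac1, Chga, Chgb, Gcg, Pyy, Insl5 and Sst. Pyy in that mouse was at 69.4 TPM, against 12.2 and 7.91 TPM in the other 2. How far the amount of colonic epithelium in a sample set these levels was not tested.

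The squamous neo-epithelium was compared with the rectum of the same mice. In the fit of days 9, 14 and 20, which had the day as a covariate, Tac1, Chga, Chgb, Tph1, Gcg, Pyy, Insl5, Sst and Cck were lower, where 21.3% of all genes were called lower. The log2 differences ran from -3.38 ± 0.73 (SE) for Pyy to -1.25 ± 0.30 for Cck, with adjusted p from 9.76e-05 (Chga) to 0.00913 (Sst). Nts was at 0.9 to 5.61 TPM in the 9 neo-epithelial samples and 0 to 2.09 TPM in the 9 rectal ones (log2 difference 1.28 ± 0.23, SE, adjusted p = 2.56e-04, background of genes called higher 20.7%). Tac1, Chga, Chgb, Tph1 and Insl5 were lower in neo-epithelium in all 9 mice, Gcg and Pyy in 8, Cck in 7 and Sst in 6, while Nts was higher in all 9. The exceptions were mouse 17 of day 20 for Gcg, Pyy, Cck and Sst, mouse 19 of day 20 for Cck and Sst, and mouse 14 of day 14 for Sst. The means of the days differed by unequal amounts: neo-epithelial Pyy averaged 9.97 TPM when rectal Pyy averaged 817 TPM at day 9, 94.6 TPM against 475 TPM by day 14, and 189 TPM against 291 TPM by day 20. Tac1 was at 0.392 and 58.5 TPM, 10.7 and 58.8 TPM, and 8.77 and 19.3 TPM. Whether the difference between the sections changed with the day was not tested. All 10 calls held when any 1 mouse was left out and with the mouse as a block. The 9 squamous markers were higher in neo-epithelium than in rectum and 9 of 10 colonocyte markers were lower.

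Against the anus of the same mice, the fit over the 3 days called 8 members higher in neo-epithelium, Tac1, Chga, Chgb, Gcg, Pyy, Insl5, Sst and Nts (background 38.1%), and Cck lower (log2 difference -0.72 ± 0.23, SE, adjusted p = 0.0131, background of genes called lower 20.4%). In anus Chga, Chgb, Gcg and Sst reached 1 TPM only in mouse 17 of day 20, at 3.58, 5.54, 4.23 and 7.09 TPM. These 4 thus passed the filter mainly through neo-epithelium, where they are higher. The largest differences were those of Pyy (2.52 ± 0.66, SE, adjusted p = 0.00372), Insl5 (2.52 ± 0.57, SE, adjusted p = 0.00134) and Gcg (2.02 ± 0.34, SE, adjusted p = 1.16e-04), and the ranges of the 9 samples of each section overlapped for all of them. Tac1 was at 0.0572 to 21.3 TPM in neo-epithelium and 0.327 to 15.5 TPM in anus (1.17 ± 0.48, SE, adjusted p = 0.045). The Tac1 call between these sections was lost without any 1 of mice 14, 15, 16, 18 and 19 (adjusted p up to 0.119), with TMM factors (adjusted p = 0.0626), with a pseudocount of 0.1 (adjusted p = 0.114), without the filter of low genes (adjusted p = 0.0729) and with the mouse as a block (adjusted p = 0.0502). By mouse, Chga, Chgb, Gcg, Pyy, Insl5, Sst and Nts were each higher in neo-epithelium in 8 of 9 mice and Tac1 in 6, and Cck was lower in 7. The day 9 means of Tac1 lay the other way, at 0.392 TPM against 0.841 TPM in anal samples, before 10.7 and 0.608 TPM at day 14 and 8.77 and 5.73 TPM at day 20. For Cck the means were 0.215 and 1.99 TPM, 0.970 and 2.80 TPM, and 0.907 and 0.826 TPM. Tph1 did not pass the test (adjusted p = 0.578). The Sst call between these sections was lost without any 1 of mice 13, 14, 15 and 19 (adjusted p up to 0.0851). The Nts call between these sections was lost without mouse 12 or mouse 16 (adjusted p up to 0.0545). Colonocyte markers were again on the side of the hormones, with 9 of 10 higher in neo-epithelium.

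Within the neo-epithelium day 20 was compared with day 9. Pyy was at 23, 1.16 and 5.73 TPM at day 9, 183, 40.03 and 60.5 TPM at day 14 and 228, 93.3 and 246 TPM at day 20. Tac1 was at 0.995, 0.0572 and 0.123 TPM, 21.3, 5.12 and 5.65 TPM and 10.9, 6.75 and 8.65 TPM on these days, and Chga at 0.797, 0 and 0.243 TPM, 3.14, 1.12 and 1.96 TPM and 5.48, 2.23 and 5.77 TPM. From day 9 to day 20, 4 of 6 members counted rose, where 10.1% of all genes did: Pyy (log2 change 4.63 ± 0.86, SE, adjusted p = 0.0122), Insl5 (3.28 ± 0.74, SE, adjusted p = 0.022), Chgb (2.70 ± 0.62, SE, adjusted p = 0.0236) and Gcg (2.19 ± 0.53, SE, adjusted p = 0.0273). Tac1, Chga and Sst were under 1 TPM in all 3 samples of day 9 and passed the filter only through day 20, so their log2 changes of 2.85 ± 0.30, 2.00 ± 0.36 and 1.11 ± 0.30 (SE) are a description. The 4 calls were all lost without mouse 13, those of Chgb, Insl5 and Gcg also without mouse 17 or mouse 19, and that of Chgb without mouse 12, and over the mice left out their adjusted p went up to 0.0899. The Insl5 and Gcg calls were also lost with a pseudocount of 0.1 (adjusted p = 0.0746 and 0.0613) and, like that of Chgb, with no filter on low values. Colonocyte markers summed to 61.5 to 418 TPM at day 9, with up to 3 of 10 at 0, and 653 to 4892 TPM at day 14. At day 20 the sum was 2646 to 6264 TPM. From day 9 to day 20, 9 of 10 rose, Aqp8 passing the filter only through day 20. Nts was at 0.9, 3.89 and 3.78 TPM at day 9 and 2.58, 5.61 and 5.03 TPM at day 20 (adjusted p = 0.368).

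**Figure D4:**
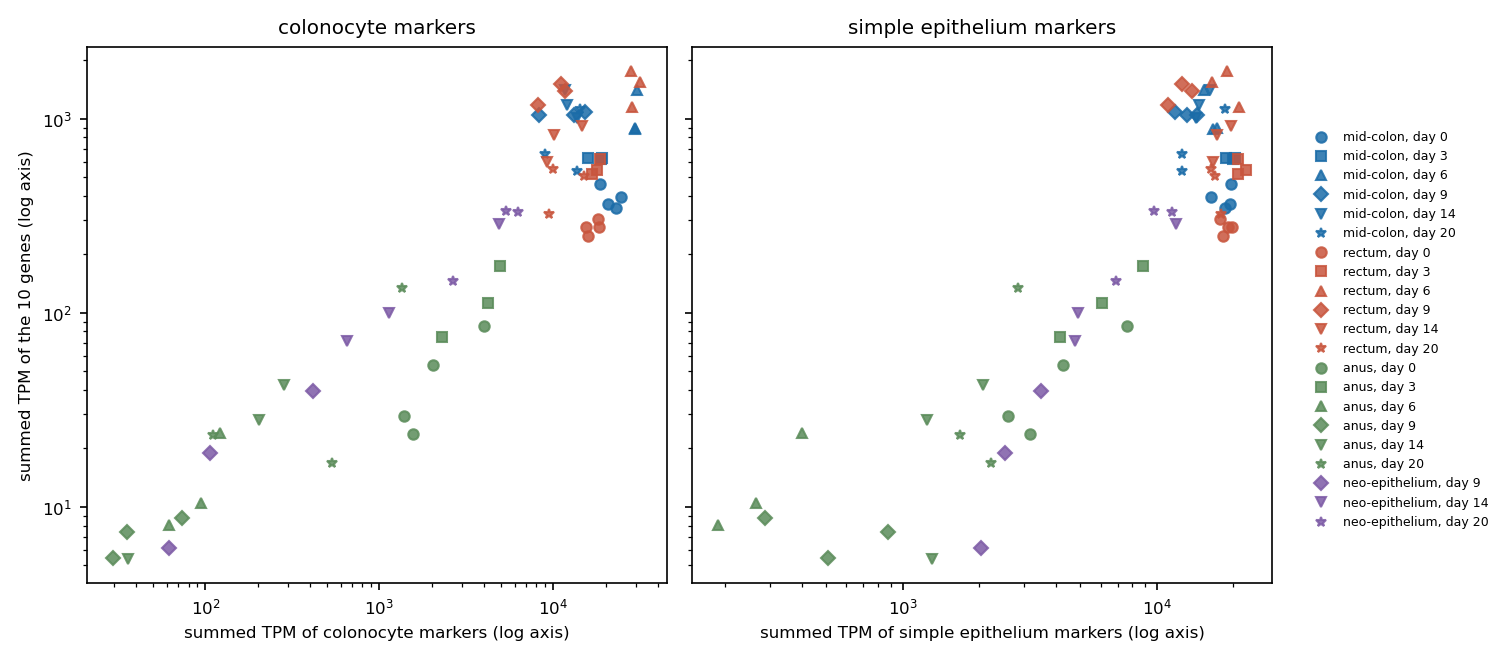
Summed TPM of the 10 genes (y axis) against the summed TPM of 10 colonocyte markers (left) or 12 simple epithelium markers (right) in the same sample, both on log axes, with colour for section and symbol for day. Anal and neo-epithelial samples span the lower left of both panels, while rectum and mid-colon vary in the hormone sum over a narrow range of simple epithelium markers.

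From day 9 to day 20, with no sample shared with day 0, levels came down in rectum and, for fewer genes, in mid-colon. In rectum 8 of 10 members fell, where 14.8% of all genes did. Gcg (log2 change -2.53 ± 0.30, SE, adjusted p = 0.00312), Chga (-2.09 ± 0.35, SE, adjusted p = 0.00821), Tph1 (-1.62 ± 0.31, SE, adjusted p = 0.012) and Pyy (-1.51 ± 0.24, SE, adjusted p = 0.00776) were called without any 1 of the 6 mice. Tac1, Insl5, Sst and Chgb were called as well, with adjusted p from 0.039 to 0.0483, and all 4 calls were lost with TMM factors, with no filter on low values and without any 1 of mice 11, 13, 17 and 19 (adjusted p up to 0.155). Tac1 and Insl5 were also lost without mouse 12, and Chgb without mouse 18 or with a pseudocount of 0.1. In mid-colon Tac1 (-2.73 ± 0.40, SE, adjusted p = 0.0031) and Gcg (-2.16 ± 0.19, SE, adjusted p = 0.00109) fell, 2 of 9 tested (background 14.5%). In anus 0 of 4 tested were called by limma, where 2.15% of all genes were called in either direction. Pyy had an unadjusted p under 0.05 by limma. Nts, 1 of the 4, passed the filter only through day 20, so its change there is a description.

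Whether rectum and mid-colon responded differently was tested as the difference between their changes from day 0. Cck, which passed the filter only through later rectal samples, is left out of these counts. At day 9, 3 of 8 members changed more in rectum than in mid-colon, where 5.84% of all genes did: Tph1 (difference of log2 changes 2.00 ± 0.39, SE, adjusted p = 0.00649), Pyy (0.83 ± 0.21, SE, adjusted p = 0.0299) and Insl5 (1.05 ± 0.29, SE, adjusted p = 0.0484). Tph1 kept its call without any 1 of the 7 mice of either day. The Pyy call for this difference was lost without any 1 of mice 1, 2, 11 and 13 (adjusted p up to 0.214). The Insl5 call for this difference was lost without any 1 of mice 1, 2, 3, 12 and 13 (adjusted p up to 0.233), with TMM factors (adjusted p = 0.126), with a pseudocount of 0.1 (adjusted p = 0.0704) and without the filter of low genes (adjusted p = 0.0862). With the mouse as a block, Chga was called too (adjusted p = 0.0479, without it 0.0664), and 6.80% of all genes were called higher. The levels behind these values are those above, for example 12.9 to 28.7 TPM of Tph1 in rectum and 4.45 to 9.76 TPM in mid-colon at day 9. For Gcg, which rose steeply in both sections, the difference at day 9 was 0.09 ± 0.21 (SE, adjusted p = 0.876).

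At day 6 limma called 0% of all genes and 0 of 8 members for this difference, although 7 of the 8 members had an unadjusted p under 0.05. With the mouse as a block 2 of the 8 were called, where 0.501% of all genes were called higher. These were Insl5 (adjusted p = 0.0036) and Gcg (adjusted p = 0.0125). Without the block their differences were 1.49 ± 0.36 and 1.45 ± 0.28 (SE), with adjusted p of 0.24 and 0.125. The difference for Cck, 2.44 ± 0.37 (SE), is a description. Tac1 was the one member whose value lay the other way, at -0.34 ± 0.51 (SE, adjusted p = 0.9998). At day 3, 0% of all genes and 0 of 7 members counted were called by limma, and 0 of the 7 had an unadjusted p under 0.05. Tac1 at day 3 had a difference of 1.04 ± 0.65 (SE), given with no test.

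Other genes of the enteroendocrine cell were taken from lists. Counts leave out genes that were under 1 TPM in every sample of one of the groups compared, since these passed the filter only through the other group, and such genes are given by their values alone. Of 18 genes of granule content, prohormone cleavage and exocytosis, 12 were counted in rectum on each day, of which 9 rose at day 6 (11.5% of all genes) and 5 at day 9 (33.5% of all genes), with none called lower on either day. The median log2 change was 0.64 against -0.27 for all genes at day 6 and 0.66 against 0.13 for all genes at day 9. Cpe, the carboxypeptidase that trims prohormones, was at 8.98 to 11.8 TPM at day 0 and at 30.6 to 34.9 TPM at day 6 (log2 change 1.56 ± 0.13, SE). Resp18, a protein of the secretory pathway, was at 6.04 to 10.1 TPM at day 0 and 19.3 to 26.6 TPM at day 6 (1.48 ± 0.18). Scg5, a chaperone of the convertase Pcsk2, was at 2.66 to 3.2 TPM and 6.79 to 9.8 TPM (1.23 ± 0.14), and Ptprn, of the granule membrane, under 1 TPM in all controls, at 0.247 to 0.386 TPM and 1.4 to 2.01 TPM. In mid-colon Cpe alone rose, 1 of 10 at day 6 (0.92 ± 0.16; 4.93% of all genes), joined by Pam with TMM factors, and 1 of 10 at day 9 (1.26 ± 0.20; 26.5% of all genes).

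Of 12 genes that make, carry, degrade or sense serotonin, 5 were counted in rectum at day 6 and 4 fell, Maob, Slc6a4, Maoa and Ddc, where 37.2% of all genes fell. At day 9 these 4 and Htr4 fell, 5 of 6 counted, where 20.0% of all genes fell (median log2 change -1.69 against 0.13 for all genes). With TMM factors each of these genes was called lower as well. Htr4 at day 6 passed the filter only through the controls. Slc6a4, the transporter that takes serotonin up into epithelial cells, was at 22.4 to 24.7 TPM at day 0, 5.84 to 13.7 TPM at day 6 and 0.377 to 1.46 TPM at day 9 (log2 change at day 9 -3.73 ± 0.19, SE). The monoamine oxidases that degrade serotonin, Maob (-2.80 ± 0.17 at day 9) and Maoa (-2.06 ± 0.12), and the decarboxylase Ddc, which completes its synthesis (-1.32 ± 0.18), fell as well. Trpa1, an irritant-gated channel of enterochromaffin cells and sensory neurons, was at 0.247 to 0.489 TPM at day 0 and 1.88 to 3.23 TPM at day 9, and passed the filter only through day 9. In mid-colon Maob, Slc6a4 and Ddc fell at day 6, 3 of 5 counted (9.99% of all genes), and Maoa as well at day 9, 4 of 6 (17.0% of all genes). Maoa, Maob, Ddc and Slc6a4 are also made by absorptive epithelium.

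Of 19 transcription factors of enteroendocrine development, 6 passed the filter in rectum at day 6, Etv1 only through that day, and 5 at day 9. Neurog3, which sets the endocrine fate, was at 0.0394 to 0.112 TPM at day 0, 0 to 0.0341 TPM at day 6 and 0.32 to 1.67 TPM at day 9, and Neurod1, which acts after it, at 0.0569 to 0.282, 0.331 to 0.898 and 0.634 to 1.27 TPM, both too low to be tested. At day 6 Foxa2 (-1.28 ± 0.21, SE), Isl1 (-0.70 ± 0.18), Foxa1 (-0.61 ± 0.13) and Hhex (-0.56 ± 0.14) fell, 4 of 5 counted against 37.2% of all genes, and Hhex was not called with TMM factors. Foxa1 and Foxa2 are broadly expressed in gut epithelium. Of the nutrient receptors of L cells, 3 of 13 were tested and all 3 rose at day 6 (11.5% of all genes): Ffar4, a receptor of long-chain fatty acids (7.39 to 9.58 TPM at day 0, 16.8 to 22.7 TPM at day 6, 1.10 ± 0.15), Ffar2, a receptor of short-chain fatty acids (0.97 ± 0.19), and Olfr78 (0.73 ± 0.15). At day 9 Ffar2 was called, 1 of 3 (33.5% of all genes), and with TMM factors none.

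Receptors and peptidases that act on these hormones were mostly too low to test. Of 26 listed, 5 were counted in rectum at day 6 and all 5 fell, where 37.2% of all genes fell, among them Npy1r, a receptor of neuropeptide Y and peptide YY (log2 change -1.26 ± 0.17, SE), and the peptidases Dpp4 (-0.90 ± 0.24) and Ace (-0.90 ± 0.28). With TMM factors 2 of these 5 were called, Npy1r and Dpp4. Sstr1, a somatostatin receptor, was at 3.21 to 4.58 TPM at day 0 and 0.283 to 0.876 TPM at day 6, where it passed the filter only through the controls. At day 9 4 of 6 fell (20.0% of all genes), and 6 of 6 with TMM factors. Of 14 further hormone genes 4 passed the filter in rectum at day 6 and 6 at day 9. Npb did so on both days only through the controls. It reached 1 TPM in 3 controls and in no sample of days 6 and 9, and was thus lower. Sct, the gene of secretin, rose on both days, where 11.5% and 33.5% of all genes were called higher. It was at 4.43 to 6.66 TPM at day 0, 7.33 to 10.8 TPM at day 6 and 12.8 to 21.9 TPM at day 9 (1.57 ± 0.21, SE, at day 9). Iapp, the gene of amylin, was at 0 to 0.128 TPM at day 0 and 1.34 to 1.45 TPM at day 9, and passed the filter only through day 9.

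Markers of other cells that can make these transcripts were read in the same samples. Of 15 enteric neuron markers, 4 were tested in rectum at day 6, where 11.5% of all genes rose and 37.2% fell. Uchl1 rose (0.81 ± 0.18, SE) and Gap43 fell (-0.63 ± 0.16, not called with TMM factors). At day 9, 5 were tested, where 33.5% of all genes rose. Snap25 and Uchl1 rose (0.85 ± 0.25 and 0.71 ± 0.21) and Tubb3 passed the filter only through day 9. The 15 markers summed to 10.5 to 13.9 TPM at day 0 and 12.6 to 18.1 TPM at day 6. At day 9 the sum was 11.3 to 23.4 TPM, and at most 1 of 15 was at 0 in a sample. In mid-colon, where Tac1 was highest in 1 mouse of day 6, the sum was 8.61 to 14.2 TPM at day 0 and 10.5 to 14 TPM at day 6, and 0 of 4 tested were called by limma (0 with an unadjusted p under 0.05, and 0 called with TMM factors). Of 7 sensory peptide genes, Scn10a and Mrgprd were at 0 in all rectal samples of days 0, 6 and 9. Calcb was at 0.159 to 2.66 TPM at day 0 and 3.98 to 56 TPM at day 9 in rectum. All 7 genes together summed there to 2.29 to 5.00 TPM at day 0 and 4.95 to 62.6 TPM at day 9. Such a sum can thus rest largely on 1 gene, and the sums that follow are not split by gene. In neo-epithelium the neuron markers summed to 61.7 to 152 TPM and the sensory peptide genes to 939 to 2099 TPM, against 24.7 to 69 TPM and 74.7 to 783 TPM in anus on the same days. The part of neurons in the Tac1 values was not tested.

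Of 12 mast cell markers, 3 were counted in rectum at day 9 and 2 rose, Mcpt2 and Cma1, where 33.5% of all genes rose. Hdc and Mcpt1 passed the filter only through day 9. The 12 markers summed to 10.0 to 11.8 TPM at day 0 and 104 to 269 TPM at day 9. That was the day of highest Tph1, a gene that mouse mast cells can also express. Hdc, the histamine-forming enzyme, which neutrophils and other myeloid cells make too, took most of the sum at day 9. It was at 0 to 0.149 TPM at day 0 and 73.1 to 247 TPM at day 9. The chymase Cma1 was at 4.48 to 5.87 and 9.7 to 16.3 TPM on these days (1.01 ± 0.19, SE). The part of mast cells in the Tph1 values was not tested. Simple epithelium markers summed to 17656 to 19801 TPM in rectum at day 0 and 16514 to 21057 TPM at day 6. At day 9 the sum was 11082 to 13795 TPM. At day 6, 2 of 12 were called higher and 3 lower, where 11.5% and 37.2% of all genes were. With TMM factors 5 of 12 were called higher and none lower on that day. Colonocyte markers summed to 15428 to 18335 TPM at day 0, 27908 to 31694 TPM at day 6 and 8169 to 11750.2 TPM at day 9, and in mid-colon to 18611 to 24577 TPM, 29518 to 30474 TPM and 8273 to 15141 TPM.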

How the data were processed

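Bulk RNA of 66 gut samples from 19 mice was measured. Per the submitters' processing notes the tools were CASAVA and kallisto and the build was mm10; no versions are given in the sources used here. The deposited table holds, for each transcript, a signal per sample that the authors estimated and scaled as TPM. Of its 126860 rows, 37344 had no values and 1318 repeated another row; after these were dropped each sample summed to 1000000, and 88198 transcripts gave 30452 genes. Each sample had 11268 to 13789 genes at 1 TPM or more. The table holds no read counts, so depth is unknown.

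Groups came from the sample labels, and each sample of a group came from a different mouse. Genes at 1 TPM or more in at least as many samples as the smallest group of a section and day were tested on log2(TPM + 1) with limma 3.58.1 (trend, in R 4.3.3), with Benjamini-Hochberg adjustment over all genes tested. A gene below this level in every sample of 1 of the groups compared was given as a description. The script was tested on simulated data. The alternatives were TMM factors (computed without weights), a pseudocount of 0.1, no filter, a filter at 5 TPM, all 19 samples of a section, the mouse as a replicate block, and each mouse left out in turn.

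Sections of a mouse share the animal, so samples are paired by mouse; the mean correlation of paired deviations from their group means was 0.0538 for anus and rectum, 0.146 for rectum and mid-colon at day 0, 0.258 for neo-epithelium and rectum and 0.157 for neo-epithelium and anus. The rule for names was all 10 members, up to 4 called genes of each list with the largest changes, and the 3 genes nearest to Tac1 and to Chga. The members and lists were chosen with earlier results of these data known. Exon coordinates and sequences were read from the GENCODE annotation and transcripts of GRCm38, and gene coordinates from RefSeq.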

Additional observations from a re-analysis of the deposited data

Results flagged for a closer look

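Chga in anus at day 0 had 1 mouse, the highest at 2.938 TPM, far from the other 3, by Dixon's criterion at the 95% level. Nts in rectum at day 0 likewise had 1 mouse at 0.1578 TPM while the other 3 were listed at 0. With 3 values at 0 the criterion is met by any single value above 0, so it says nothing about that mouse. Of the 66 samples, only the 4 mice of day 0 form groups large enough for this criterion, which was applied to 30 groups of 4 samples, and chance alone flags about 1 in 20.

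Tph1, Pyy and Insl5 changed more in rectum than in mid-colon at day 9, by the test of the difference itself. The difference of log2 changes from day 0 was 1.9965 for Tph1, 0.82738 for Pyy and 1.0457 for Insl5. Tph1 was at 12.9 to 28.7 TPM in rectum and 4.45 to 9.76 TPM in mid-colon at day 9. The sum of mast cell markers, a cell type that can also express Tph1, was 104 to 269 TPM in rectum and 28.4 to 54.9 TPM in mid-colon on that day. Most of the rectal sum was Hdc, which neutrophils and other myeloid cells make too. The part of mast cells in the Tph1 difference was not tested.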

How the results depend on the processing

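No call reversed its direction under any alternative. Of 202 gene and comparison results, 189 kept their call with TMM factors, 195 with a pseudocount of 0.1 and 180 with no filter on low values, and 148 of 148 did with a filter at 5 TPM. With all 19 samples of a section 95 of 109 were kept, and over the fits without 1 mouse 1219 of 1367.

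The number of calls against day 0 in anus, 7, became 3 with no filter and 2 with a filter at 5 TPM, which leaves fewer members tested, and ranged from 4 (without mouse 2) to 7 when 1 mouse was left out. Rectum against mid-colon at day 0 gave 1 call, 2 with TMM factors and 0 with no filter, and 0 to 1 without 1 mouse. The 17 calls of day 20 against day 9 became 9 with no filter, and ranged from 7 (without mouse 13) to 21 (without mouse 18), with 11 without mouse 17 and 9 without mouse 19. Of the calls against day 0 in anus, 4 were of genes that passed the filter through 1 group only. So were 3 of the calls of day 20 against day 9, all in neo-epithelium. Both sets are given as a description only. The cause of these shifts was not tested.

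The difference in response of rectum and mid-colon gave 3 calls, and 1 (without mouse 1, 2 or 13) to 5 (without mouse 10 or 12) when 1 mouse was left out. With the mouse as a replicate block it gave 7 calls, those named beside the results and that of Cck at day 6. Elsewhere the block ended the Tac1 call between neo-epithelium and anus and changed no other call of the members.

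TMM factors moved the median log2 change of all genes by more than 0.1 in 10 of 26 comparisons. The shift was 0.22 in mid-colon and 0.21 in rectum at day 6, -0.23 and -0.28 at day 9, -0.15 in mid-colon at day 3, -0.23 for rectum against mid-colon, -0.12 for neo-epithelium against anus, 0.20 in mid-colon and 0.24 in rectum from day 9 to day 20, and 0.21 for the difference in response at day 3. The share of higher genes among all calls moved by over 10 percentage points in several comparisons. Some of these had a median shift under 0.1, such as mid-colon at day 14 (-0.02). In rectum the share moved from 23.7% to 49.0% at day 6, 62.7% to 40.7% at day 9 and 22.6% to 34.5% at day 3. In mid-colon it moved from 33.1% to 53.7% at day 6 and 61.0% to 41.8% at day 9. There it also moved from 58.4% to 42.8% at day 14 and 43.4% to 25.7% at day 20. In anus it moved from 52.9% to 40.9% at day 14 and from 74.6% to 60.2% at day 20, for rectum against mid-colon from 84.7% to 39.4% and for neo-epithelium against anus from 65.1% to 52.6%. From day 9 to day 20 it moved from 29.5% to 48.1% in mid-colon and from 28.7% to 53.1% in rectum, and for the difference in response at day 9 from 89.3% to 69.1%.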
